A study of Mus musculus with 9 samples.

Results

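DNA methylation was examined at 5 genes of the trophoblast lineage, *Elf5*, *Ets2*, *Tfap2c*, *Tfap2a* and *Hand1*, in mouse embryonic stem cells (ESCs) that lack 1 of the de novo methyltransferases. The members were given by name, and they are 5 of 22367 annotated protein-coding genes. Each gene was taken with the window of 1 kb on either side of its transcription start site (TSS), the rest of its body and 5 kb of flank on each side. This gave 2673 CpGs read at least 3 times in each of the 3 genotypes, of 13328402 such CpGs in the part of the genome listed for all of them. That part is 13 whole chromosomes and part of chromosome 4, where the deposited rows for WT stop.

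The data came from whole genome bisulfite sequencing (WGBS) of J1 ESCs, a line of the strain 129S4/SvJae. They were wild type (WT), *Dnmt3a*-/- (*Dnmt3a* KO) or *Dnmt3b*-/- (*Dnmt3b* KO), and were grown on gelatin in medium with serum and LIF, with no other treatment named. Each genotype had 3 libraries, 9 in all, which the authors merged into 1 table of reads per CpG. Each value below is therefore 1 pooled value per genotype without replicate error, and no difference could be tested across replicates. Each KO is 1 cell line as far as the sources tell, so that genotype and line cannot be told apart.

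The trophoblast forms the outer layer of the early embryo and later the fetal part of the placenta, and ESCs rarely give rise to it. *Elf5* encodes an ETS factor that acts with CDX2 and EOMES in trophoblast stem cells, and its promoter is known to be methylated in ESCs and unmethylated in trophoblast stem cells. *Ets2* encodes another ETS factor, needed for the upkeep of trophoblast stem cells. *Tfap2c* and *Tfap2a* encode AP-2 factors of trophoblast and ectoderm, and *Hand1* encodes a helix-loop-helix factor of trophoblast giant cells and of the heart. DNMT3A and DNMT3B place new methyl groups on CpGs, DNMT1 copies them at replication, and promoters dense in CpGs usually stay free of methylation. Bisulfite does not separate methylated from hydroxymethylated cytosine, and expression of the 5 genes was not analysed here.

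On the mm9 build, *Elf5* (ENSMUSG00000027186.8) lies on the plus strand at chr2:103251845-103291146, with other coding TSSs 12374, 12438 and 13140 bp into the gene. The one at 12374 bp is called the internal TSS below. *Ets2* (ENSMUSG00000022895.8) lies on the plus strand at chr16:95923682-95942658, and *Tfap2c* (ENSMUSG00000028640.5, annotated as Tcfap2c) on the plus strand at chr2:172375093-172384122. *Tfap2a* (ENSMUSG00000021359.8, annotated as Tcfap2a) lies on the minus strand at chr13:40811044-40829192, and *Hand1* (ENSMUSG00000037335.7) on the minus strand at chr11:57642207-57646320. Some flanks hold other genes, with the end of *Cat* in the downstream flank of *Elf5*, the small gene *Gm11003* upstream of *Hand1*, and the noncoding *Gm16989* across the first part of *Tfap2a*.

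The promoters differed in how many CpGs they hold. The 300 bases before 3 start sites are shown, since *Elf5*, with few CpGs, had the highest WT level and *Hand1* the next below it. They are given 5′ to 3′ on the strand of the gene, from the mm9 reference, with CpGs in capitals:
*Elf5*, before the main TSS, chr2:103251545-103251844 (+): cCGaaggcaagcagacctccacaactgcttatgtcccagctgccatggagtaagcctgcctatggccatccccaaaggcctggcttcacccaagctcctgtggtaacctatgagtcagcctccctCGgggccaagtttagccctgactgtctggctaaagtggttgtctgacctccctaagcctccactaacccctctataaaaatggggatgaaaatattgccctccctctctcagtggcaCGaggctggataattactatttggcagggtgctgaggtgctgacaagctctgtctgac
*Elf5*, before the internal TSS, chr2:103263919-103264218 (+): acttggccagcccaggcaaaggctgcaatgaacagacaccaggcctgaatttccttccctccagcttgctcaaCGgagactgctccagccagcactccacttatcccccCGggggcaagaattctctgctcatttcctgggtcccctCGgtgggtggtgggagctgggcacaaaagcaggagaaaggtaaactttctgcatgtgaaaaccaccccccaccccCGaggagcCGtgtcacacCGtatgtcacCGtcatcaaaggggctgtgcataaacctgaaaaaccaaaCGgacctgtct
*Hand1*, before the TSS, chr11:57646321-57646620 (-): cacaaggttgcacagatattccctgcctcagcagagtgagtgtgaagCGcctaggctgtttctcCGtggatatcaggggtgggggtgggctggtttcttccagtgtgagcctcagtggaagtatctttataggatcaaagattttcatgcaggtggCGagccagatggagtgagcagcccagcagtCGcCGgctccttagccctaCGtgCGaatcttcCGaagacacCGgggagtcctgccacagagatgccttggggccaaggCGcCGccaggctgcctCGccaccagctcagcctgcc

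The 300 bases held 3 CpGs before the main *Elf5* TSS and 8 before its internal TSS, against 12 before *Hand1*, 14 before *Tfap2a* and 20 before *Ets2*. Over the whole TSS window the observed over expected ratio of CpGs was 0.164 at *Elf5*, a ratio below which 14.7% of all genes fell. It was 0.423 at *Hand1*, 0.667 at *Tfap2a*, 0.685 at *Tfap2c* and 0.705 at *Ets2*.

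Methylation was lower in the *Dnmt3a* KO than in WT ESCs in all 20 regions, the 4 regions of each of the 5 genes. *Dnmt3b* KO ESCs were lower than WT in 19 of the 20, by smaller steps and by the mean over CpGs, and *Dnmt3a* KO ESCs were lower than *Dnmt3b* KO ESCs in 20. Such counts are near those of all genes, where 98.6%, 94.7% and 95.2% of TSS windows were lower in these 3 comparisons. In the TSS window *Elf5* was the most methylated of the 5 genes in every genotype, and *Tfap2c* and *Tfap2a* were near 0 throughout. The level of a region is the mean methylation of its CpGs, and intervals are 95% Newcombe intervals of the difference in the share of methylated reads. They cover counting error only, since reads are amplified by PCR and neighbouring CpGs share reads. Mean depth in the 20 regions ran from 12.9 to 29.5 reads per CpG.

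**Figure D1:**
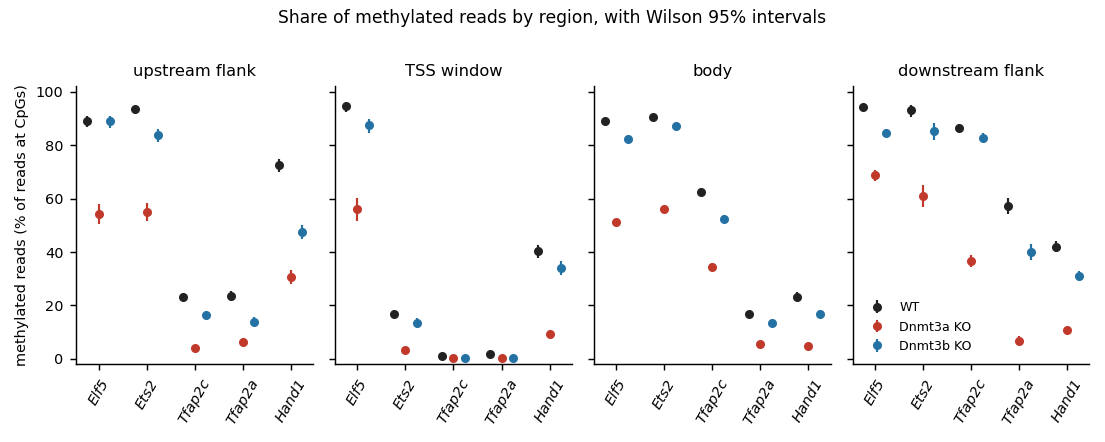
Share of methylated reads (%, y axis) of each gene (x axis) in the upstream flank, TSS window, body and downstream flank, with points for WT, *Dnmt3a* KO and *Dnmt3b* KO ESCs and Wilson 95% intervals as bars, which cover counting error only and are often smaller than the points. In the TSS window *Elf5* stands at 94.5% in WT, 56.0% in the *Dnmt3a* KO and 87.5% in the *Dnmt3b* KO, while *Tfap2c* and *Tfap2a* lie under 2% in every genotype.

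At the main *Elf5* TSS, the mean over 22 CpGs was 95.3% in WT, 55.6% in the *Dnmt3a* KO and 86.9% in the *Dnmt3b* KO. All 22 CpGs were high in WT, between 82.6% and 100%, whereas in the *Dnmt3a* KO they spread from 23.5% to 94.4%. The share of methylated reads fell by 38.6 percentage points in the *Dnmt3a* KO (interval -43.2 to -33.8) and differed by -7.04 points in the *Dnmt3b* KO (interval -10.4 to -3.72). The difference between the KOs was larger than counting error as well, with an interval of -36.5 to -26.4 points for *Dnmt3a* KO minus *Dnmt3b* KO. Of the 22 CpGs, 21 were lower than WT in the *Dnmt3a* KO and 15 in the *Dnmt3b* KO.

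The 3 CpGs of the printed *Elf5* sequence before the main TSS all read lower in the *Dnmt3a* KO. The CpG at -299 bp stood at 100% in WT, 33.3% in the *Dnmt3a* KO and 91.7% in the *Dnmt3b* KO. At -175 bp the levels were 100%, 60% and 100%, and at -58 bp they were 91.7%, 53.8% and 83.3%. No CpG of this window was at 0 in any genotype.

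The WT level of the main *Elf5* window was above the median of the methylated promoters, and its differences from WT lay near their medians. Among 5225 genes with a TSS window at 50% or more in WT, the median levels were 90.0% in WT, 52.2% in the *Dnmt3a* KO and 82.1% in the *Dnmt3b* KO, and the median differences from WT were -36.2 and -7.65 points. *Elf5* differed from WT by -39.8 and -8.41 points. Of these genes 95.7% were lower by more than 20 points in the *Dnmt3a* KO and 6.32% in the *Dnmt3b* KO. The 5 genes nearest to *Elf5* in the 3 levels were *Zfp639*, *Ly6d*, *Sept4*, *Prss47* and *Iffo2*, at Euclidean distances of 0.566 to 1.04 points, and 435 of 14083 other genes lay within 5 points.

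The internal *Elf5* TSS was less evenly methylated than the main one. Over 44 CpGs its window stood at 79.3% in WT, 37.2% in the *Dnmt3a* KO and 77.3% in the *Dnmt3b* KO. This WT level was below the 90.0% median of the methylated promoters. The mean differed from WT by -42.0 points in the *Dnmt3a* KO and -1.99 points in the *Dnmt3b* KO. Of the 8 CpGs in the printed sequence before the internal TSS, 7 were read. The CpG at -153 bp had the lowest level in the *Dnmt3a* KO at 6.67%, against 66.7% in WT and 100% in the *Dnmt3b* KO. The share of methylated reads changed by an interval of -47.4 to -38.9 points in the *Dnmt3a* KO and -7.79 to -0.297 points in the *Dnmt3b* KO. Within the window, the longest run of CpGs listed at 0 in the *Dnmt3a* KO held 5 CpGs. They lie between 749 and 914 bp after this TSS. They were picked by that level after their values were seen, so that their 0 in the *Dnmt3a* KO follows from the choice. The coding TSS 13140 bp into the gene lies among them. These 5 CpGs held 33 methylated of 86 reads in WT, 0 of 86 in the *Dnmt3a* KO and 6 of 107 in the *Dnmt3b* KO. A CpG at -340 bp from the internal TSS was listed at 0 in every genotype.

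**Figure D2:**
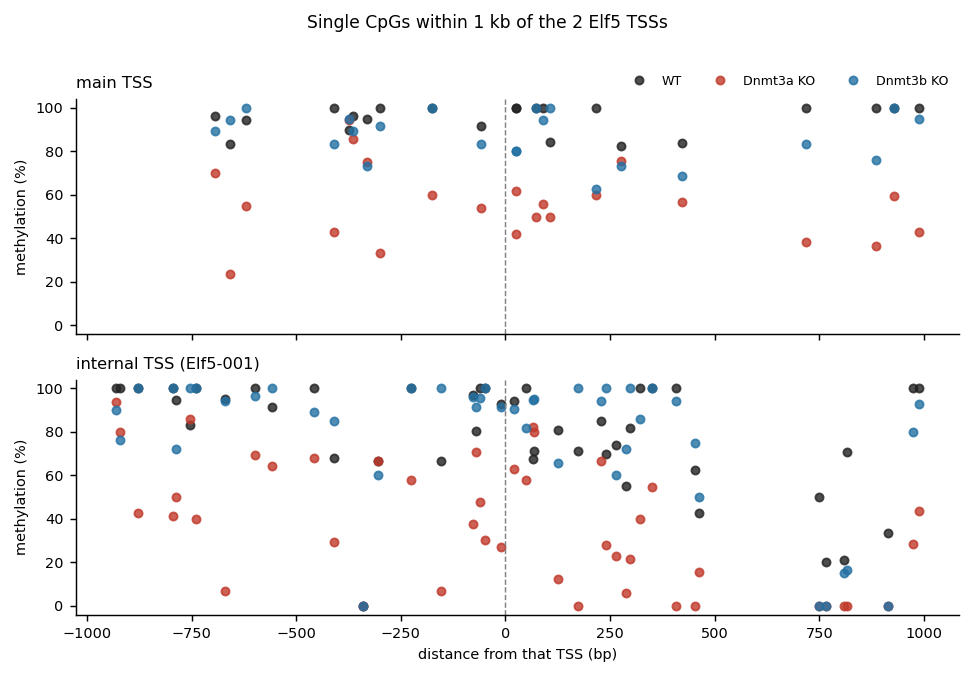
Methylation (%, y axis) of each CpG by its distance in bp (x axis) from the main and the internal TSS of *Elf5*, with 1 point per CpG and genotype (WT, *Dnmt3a* KO and *Dnmt3b* KO ESCs) and the TSS as a dashed line. At the main TSS the points of *Dnmt3a* KO ESCs spread from 23.5% to 94.4% below those of WT for 21 of 22 CpGs. In the panel of the internal TSS a patch of 5 CpGs, around another coding TSS, is at 0 in the *Dnmt3a* KO, the level by which it was picked.

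*Hand1* had an intermediate TSS window, at 34.2% in WT, 8.87% in the *Dnmt3a* KO and 33.6% in the *Dnmt3b* KO over 66 CpGs. The read share fell by 31.0 points in the *Dnmt3a* KO (interval -33.9 to -28.1), and 58 of 66 CpGs were lower. For *Dnmt3b* KO ESCs the result depended on the measure, since the mean over CpGs differed from WT by -0.558 points and the share of reads by -6.22 points (interval -9.73 to -2.69). Within 500 bp of the TSS the mean was 0.319 points higher than in WT.

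*Ets2* had a TSS window at 9.71% in WT, 2.30% in the *Dnmt3a* KO and 8.46% in the *Dnmt3b* KO over 121 CpGs. Its median CpG was at 0 in every genotype, and the methylation in WT lay before the TSS, with a mean of 31.9% in the last kb before it and 1.06% in the first kb after it. The mean differed from WT by -7.41 points in the *Dnmt3a* KO and -1.25 points in the *Dnmt3b* KO, and the read share by -13.3 points (interval -15.1 to -11.6) and -3.06 points (interval -5.23 to -0.885). On the minus strand alone the mean of *Dnmt3b* KO ESCs was 0.936 points above WT.

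The AP-2 genes were nearly free of methylation at their TSSs in every genotype. *Tfap2c* stood at 1.07% in WT, 0.285% in the *Dnmt3a* KO and 0.356% in the *Dnmt3b* KO over 117 CpGs. *Tfap2a* stood at 1.86%, 0.280% and 0.470% over 93 CpGs. The KOs were not distinguishable from each other at this depth, with intervals of the difference in read share of -0.599 to 0.281 points at *Tfap2c* and -0.442 to 0.417 points at *Tfap2a*.

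The order of the TSS windows in WT was *Elf5*, *Hand1*, *Ets2*, *Tfap2a* and *Tfap2c*. Over all 14084 genes measured, 96.9% lay below *Elf5* in WT, 59.5% below *Hand1*, 37.2% below *Ets2*, 9.38% below *Tfap2a* and 5.14% below *Tfap2c*. The median TSS window difference of the 5 genes was -7.41 points in the *Dnmt3a* KO and -1.25 points in the *Dnmt3b* KO, beside -12.3 and -3.73 points over all genes. A window lower by more than 20 points was found for 2 of the 5 genes, *Elf5* and *Hand1*, in the *Dnmt3a* KO, where 40.9% of all genes passed, and for 0 of 5 in the *Dnmt3b* KO, where 2.51% passed.

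Outside the TSS windows the bodies of *Elf5* and *Ets2* were highly methylated in WT, and those of *Tfap2c*, *Hand1* and *Tfap2a* less so. The body of *Elf5* stood at 88.0% in WT, 50.9% in the *Dnmt3a* KO and 81.3% in the *Dnmt3b* KO over 425 CpGs, and that of *Ets2* at 90.4%, 55.5% and 85.2% over 274 CpGs. The body of *Tfap2c* was at 49.7%, 29.9% and 45.2%, that of *Hand1* at 22.3%, 4.80% and 17.2%, and that of *Tfap2a* at 14.5%, 4.18% and 11.3%. Only 1.12% of gene bodies lay below *Tfap2a* in WT, 1.77% below *Hand1* and 4.82% below *Tfap2c*. The median body difference of the 5 genes was -19.9 points in the *Dnmt3a* KO and -5.05 points in the *Dnmt3b* KO, beside -35.2 and -7.28 points over 12624 genes.

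Of the bodies, 2 of 5, those of *Elf5* and *Ets2*, were lower by more than 20 points in the *Dnmt3a* KO (96.5% of all bodies) and 0 of 5 in the *Dnmt3b* KO (3% of all bodies). The body of *Tfap2c* stood just short of the limit at -19.9 points, and passed with a minimum of 10 reads, at -23.7 points, and as a share of reads, at -28.1 points. Upstream flanks passed for 3 of 5 genes in the *Dnmt3a* KO (93.8% of all) and for *Hand1* alone in the *Dnmt3b* KO (2.76% of all). Downstream flanks passed for 5 of 5 genes (91.2% of all) and for *Tfap2a* alone (1.69% of all). Both single calls in the *Dnmt3b* KO lay near the limit. That of *Hand1* was lost with a minimum of 10 reads, at -18.6 points, and that of *Tfap2a*, at -20.3 points, was lost with this minimum, at -18.8 points, and as a share of reads, at -17.3 points.

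**Figure D3:**
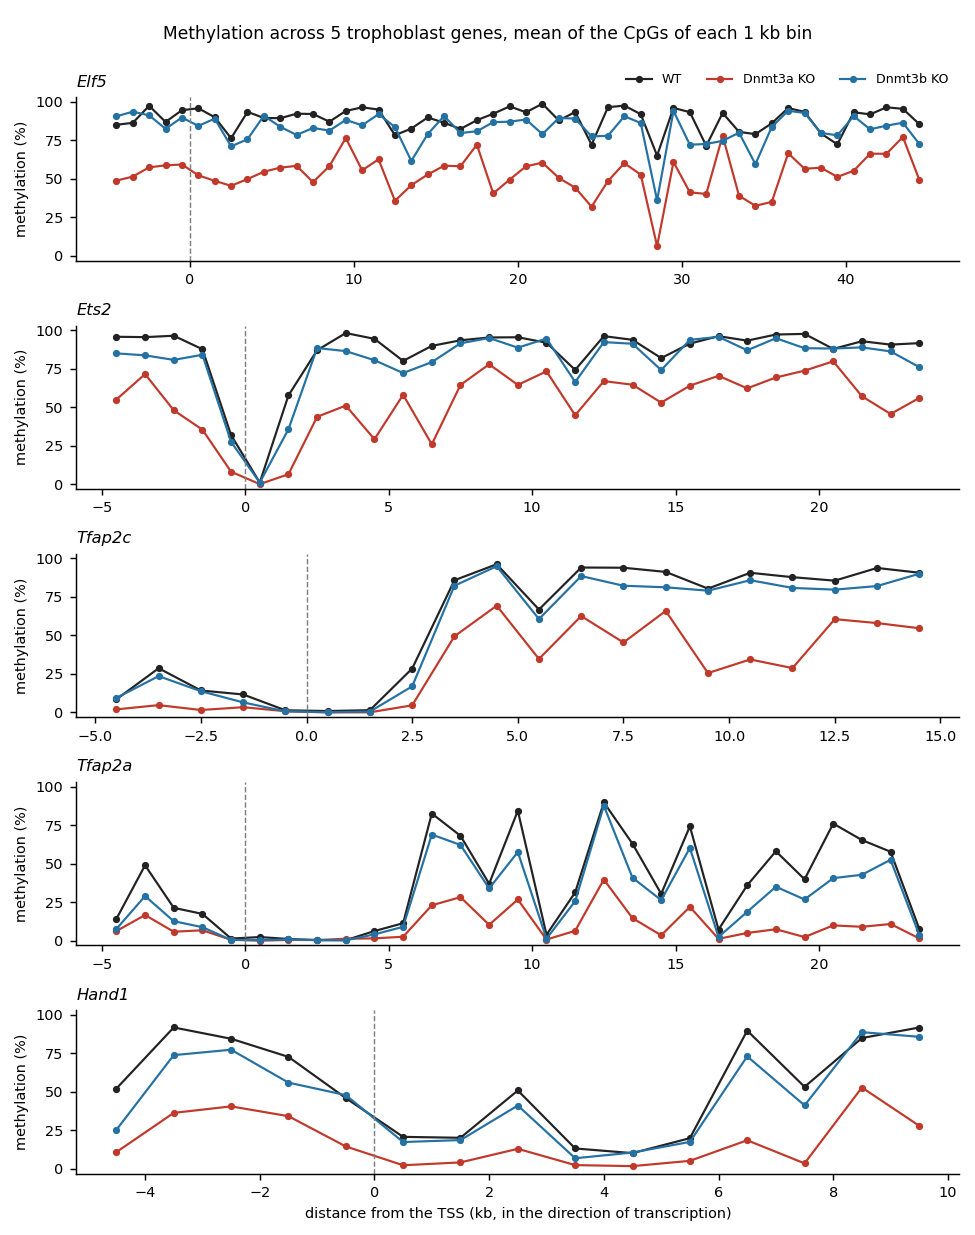
Mean methylation (%, y axis) of the CpGs in each bin of 1 kb against the distance from the TSS in kb (x axis), with 1 panel per gene and 1 line each for WT, *Dnmt3a* KO and *Dnmt3b* KO ESCs, the TSS being the dashed line. *Elf5* has no dip at its TSS, *Ets2* has a narrow one down to 1.06% in WT in the first kb, and *Tfap2c* and *Tfap2a* have wide low tracts. *Hand1* is partly methylated, with WT bins between 10.3% and 51.0% in the first 6 kb after the TSS.

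The lowest levels along *Elf5* lay in an intron. Between 28 and 29 kb after the TSS 13 CpGs averaged 65.1% in WT, 6.36% in the *Dnmt3a* KO and 36.1% in the *Dnmt3b* KO, the lowest bin of the gene in all 3 genotypes. At *Ets2* the largest bin differences in the *Dnmt3a* KO lay inside the gene, 4 to 5 kb and 6 to 7 kb after its TSS. The CpGs of the first bin stood at 94.4% in WT, 29.2% in the *Dnmt3a* KO and 80.5% in the *Dnmt3b* KO. Those 6 to 7 kb after the TSS stood at 89.8%, 25.9% and 79.3%. The window around its other coding TSS, 4264 bp into the gene, stood at 96.1%, 35.1% and 81.5%. In the bin from 1 to 2 kb after the main TSS the levels were 57.6%, 6.43% and 35.7%.

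At *Hand1* the upstream flank stood at 65.8% in WT, 23.4% in the *Dnmt3a* KO and 44.9% in the *Dnmt3b* KO, with a difference from WT of -20.9 points in the *Dnmt3b* KO. A lower difference was found for 2.19% of all upstream flanks. The read share differed from WT by -25.0 points (interval -28.5 to -21.4). This flank holds a dense group of CpGs between 4 and 5 kb before the TSS, where 36 CpGs averaged 52.2% in WT, 10.9% in the *Dnmt3a* KO and 25.4% in the *Dnmt3b* KO. In the bin next to the TSS, up to 1 kb before it, *Dnmt3b* KO ESCs stood at 47.9% beside 46.0% in WT and 14.6% in the *Dnmt3a* KO.

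The downstream flank of *Tfap2a* stood at 58.2% in WT, 6.69% in the *Dnmt3a* KO and 37.9% in the *Dnmt3b* KO. Its level in the *Dnmt3a* KO was 88.5% below that of WT, and 3.24% of all downstream flanks had a lower difference in points. That of *Tfap2c* stood at 86.6%, 36.3% and 81.4%, with differences from WT of -50.3 and -5.23 points. The upstream flank of *Elf5* was the 1 region of the 20 that was not lower in the *Dnmt3b* KO, at 88.6% in WT and 89.7% in the *Dnmt3b* KO, by the mean over CpGs. The share of reads there differed by -0.0901 points, with an interval of -3.09 to 2.85 points, so that the sign depended on the measure.

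Single CpGs were then called different where the 95% credible interval of the difference between 2 genotypes lay wholly beyond 0.2, as a fraction. In the *Dnmt3a* KO 511 of the 2673 CpGs, or 19.1%, were lower than in WT, beside 25.7% of all CpGs, meaning the 13328402 read in all genotypes, and 0 were higher, beside 0.00671% of all. Against WT, 46 CpGs, or 1.72%, were lower in the *Dnmt3b* KO, beside 2.16% of all CpGs. Another 5, or 0.187%, were higher, beside 0.0681% of all. Compared directly, 371 CpGs, or 13.9%, were lower in the *Dnmt3a* KO than in the *Dnmt3b* KO, beside 16.9% of all CpGs. In this comparison 1 CpG, or 0.0374%, was higher, beside 0.056% of all. The higher CpG lies at -3911 bp from the *Tfap2a* TSS, with 3 methylated of 3 reads in the *Dnmt3a* KO and 1 of 13 in the *Dnmt3b* KO. Both KOs are set against the same WT reads.

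The share of CpGs called lower in the *Dnmt3a* KO was 28.7% at *Elf5* (160 CpGs), 24.1% at *Ets2* (112), 20.7% at *Hand1* (78), 16.1% at *Tfap2c* (90) and 9.9% at *Tfap2a* (71). Over all CpGs it was 25.7%, and the order of the genes differed among CpGs high in WT, as given below. The counts for *Dnmt3b* KO ESCs were 8, 5, 11, 8 and 14, or 1.44%, 1.08%, 2.92%, 1.43% and 1.95%, beside 2.16% of all CpGs. In the TSS windows 33 of 419 CpGs were called lower in the *Dnmt3a* KO, 14 of them at *Hand1*, 10 at *Ets2* and 9 at *Elf5*. This was 7.88% of them, beside 9.06% of the CpGs in the TSS windows of all genes. Of the same CpGs 0 were called lower in the *Dnmt3b* KO, beside 1.49% in the windows of all genes. Only 1 CpG, or 0.239%, was called higher, beside 0.0431%. It lies at *Hand1* 252 bp before the TSS, with 0 methylated of 5 reads in WT and 9 of 11 in the *Dnmt3b* KO.

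The methylation of WT differed between the 5 genes. CpGs under 20% in WT made up 41.0% of the CpGs of the 5 genes, against 8.59% of all CpGs, and such CpGs cannot fall by more than 20 points. From 20% to under 80% in WT, 27.4% of the CpGs of the 5 genes were called lower in the *Dnmt3a* KO, beside 19.3% of all. At 80% or more in WT these shares were 34.8% and 29.8%. In the *Dnmt3b* KO they were 4.34% beside 3.07%, and 2.25% beside 2.23%. Among CpGs at 80% or more in WT, *Elf5* and *Ets2* lay close to all CpGs, which averaged 94.8% in WT, 58.3% in the *Dnmt3a* KO and 85.9% in the *Dnmt3b* KO. The 476 such CpGs of *Elf5* averaged 95%, 57.8% and 87.4%, and the 307 of *Ets2* 95.2%, 58.2% and 88.3%. The 168 of *Tfap2c* averaged 94.7%, 53.1% and 86.9%. The 48 such CpGs of *Tfap2a* averaged 90.1% in WT, 31.2% in the *Dnmt3a* KO and 64.3% in the *Dnmt3b* KO, and the 70 of *Hand1* averaged 92.6%, 38.2% and 77.3%. Called lower in the *Dnmt3a* KO were 29.8% of such CpGs at *Elf5*, 31.3% at *Ets2* and 39.3% at *Tfap2c*. At *Tfap2a* the share was 58.3% and at *Hand1* 57.1%, beside 29.8% of all. These CpGs were chosen by the same WT reads they are compared with, so that chance high values in WT enter the choice. At *Hand1* the CpGs under 20% in WT averaged 5.21% in WT, 2.28% in the *Dnmt3a* KO and 9.60% in the *Dnmt3b* KO. Over all CpGs under 20% in WT the averages were 1.69%, 0.983% and 2.02%. Here chance low values in WT enter the choice, so that a higher value in a KO can follow from it. Whether these differences from all CpGs exceed the variation along the genome was not tested.

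Called CpGs formed differentially methylated regions (DMRs), that is at least 4 called CpGs in a row with gaps of at most 300 bp. *Dnmt3a* KO ESCs had 6 at *Elf5*, 5 at *Ets2*, 6 at *Tfap2c*, 5 at *Tfap2a* and 2 at *Hand1*, all lower than WT, and *Dnmt3b* KO ESCs had 0 at the 5 genes. Over all the shared part there were 141968 and 1246 such DMRs. They held 6.2% of all CpGs in the *Dnmt3a* KO and 0.044% in the *Dnmt3b* KO, beside 141 and 0 of the 2673 CpGs of the 5 genes, or 5.27% in the *Dnmt3a* KO. The sequences of 3 regions are shown because they hold the lowest *Dnmt3a* KO DMR of *Elf5* and of *Ets2* and the densest calls of *Dnmt3b* KO ESCs, which lie upstream of *Hand1*. They were picked after their values were seen, and are given 5′ to 3′ on the strand of the gene, from mm9, with CpGs in capitals:
*Elf5*, intronic region, chr2:103280253-103280538 (+): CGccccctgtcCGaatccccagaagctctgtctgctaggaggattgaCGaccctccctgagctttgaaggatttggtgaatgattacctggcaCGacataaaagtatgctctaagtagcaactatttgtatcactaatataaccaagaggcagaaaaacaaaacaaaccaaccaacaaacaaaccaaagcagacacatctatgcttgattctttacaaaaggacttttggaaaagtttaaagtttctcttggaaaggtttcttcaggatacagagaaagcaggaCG
*Ets2*, intronic region, chr16:95924943-95925015 (+): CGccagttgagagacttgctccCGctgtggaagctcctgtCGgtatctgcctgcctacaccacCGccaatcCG
*Hand1*, upstream region, chr11:57650604-57650757 (-): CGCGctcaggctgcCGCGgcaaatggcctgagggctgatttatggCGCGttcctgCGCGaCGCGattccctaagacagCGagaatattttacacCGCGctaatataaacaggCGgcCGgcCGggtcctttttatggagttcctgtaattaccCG

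The intronic *Elf5* region lies 28408 to 28693 bp after the TSS, and its 5 CpGs averaged 82.5% in WT, 11.0% in the *Dnmt3a* KO and 60.4% in the *Dnmt3b* KO. The *Ets2* region, 1261 to 1333 bp after the TSS in an intron, holds 5 CpGs within 73 bp. They stood between 50% and 63.2% in WT, at 0 in the *Dnmt3a* KO and between 12.5% and 43.8% in the *Dnmt3b* KO. The *Hand1* region begins at -4437 bp from the TSS and packs 17 CpGs into 154 bp. They averaged 58.5% in WT, 6.89% in the *Dnmt3a* KO and 18.3% in the *Dnmt3b* KO, and 6 of the 17 were called lower in the *Dnmt3b* KO and 9 in the *Dnmt3a* KO.

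The CpGs with calls in the *Dnmt3b* KO upstream of *Hand1* show how far the levels moved. The CpG at -4420 bp had 15 methylated of 21 reads in WT, 2 of 18 in the *Dnmt3a* KO and 0 of 21 in the *Dnmt3b* KO. The CpG at -4324 bp had 10 of 16, 0 of 18 and 1 of 20. These positions were low in both KOs. CpGs with more methylation in the *Dnmt3b* KO were scattered, as at *Hand1* 1538 bp after the TSS, in the coding sequence, where 1 of 28 reads was methylated in WT, 1 of 38 in the *Dnmt3a* KO and 22 of 41 in the *Dnmt3b* KO.

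**Figure D4:**
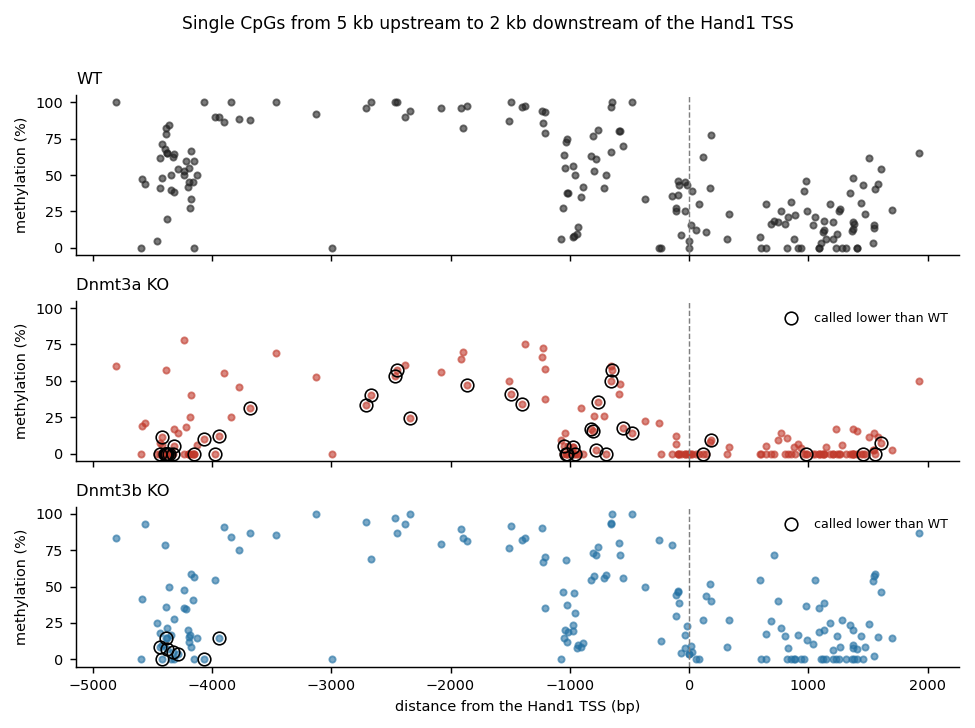
Methylation (%, y axis) of each CpG from 5 kb before to 2 kb after the *Hand1* TSS (x axis, distance in bp), with 1 panel per genotype, 1 point per CpG, circles around CpGs called lower than WT and the TSS as a dashed line. In the *Dnmt3b* KO all 8 circles lie between -4436 and -3937 bp. In the *Dnmt3a* KO circles also lie nearer to the TSS on both sides, the nearest at -478 bp and 117 bp.

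The unmethylated stretch at each TSS was measured as the run of CpGs, next to the TSS, whose running mean over 5 CpGs stayed under 10%. *Elf5* had none in any genotype. At *Tfap2c* the stretch was 2822 bp in WT, 5483 bp in the *Dnmt3a* KO and 3217 bp in the *Dnmt3b* KO, and in the *Dnmt3a* KO it reached into the upstream flank, to -2899 bp. With a running mean over 3 CpGs the lengths were 2015 bp, 2514 bp and 3217 bp, so that the order of the KOs turned. At *Tfap2a* the stretch was 1475 bp in WT, 7030 bp in the *Dnmt3a* KO and 5613 bp in the *Dnmt3b* KO. It was longer in the *Dnmt3b* KO than in the *Dnmt3a* KO both with a limit of 20%, at 5708 bp in WT, 7452 bp and 8213 bp, and with a mean over 3 CpGs, at 863 bp in WT, 3812 bp and 5607 bp. At these AP-2 genes both KOs were longer than WT under the 3 settings, whereas which KO had the longer stretch depended on the setting.

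At *Ets2* the stretch was 1210 bp in WT, 1580 bp in the *Dnmt3a* KO and 721 bp in the *Dnmt3b* KO. For the *Dnmt3b* KO the direction against WT turned with the setting, since the lengths in WT and in the *Dnmt3b* KO were 1229 bp and 1379 bp with a limit of 20%, and 633 bp and 733 bp with a mean over 3 CpGs. *Hand1* had no stretch in WT, one of 1821 bp in the *Dnmt3a* KO and one of 54 bp in the *Dnmt3b* KO. With a limit of 20% the lengths were 11 bp, 1987 bp and 117 bp, and with a mean over 3 CpGs they were 2 bp, 1849 bp and 79 bp.

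Among 8947 genes with a stretch in WT, the median length was 980 bp in WT, 1626 bp in the *Dnmt3a* KO and 1207 bp in the *Dnmt3b* KO, and 95.4% and 86.3% of the stretches were longer in the KOs. The median ratio of a gene to its own WT length was 1.63 in the *Dnmt3a* KO, and 1.71 and 1.68 with the limit of 20% and the mean over 3 CpGs. The ratios of the members moved more. In the *Dnmt3a* KO the ratio was 1.31, 1.42 and 2.57 at *Ets2* under these 3 settings, 1.94, 2.41 and 1.25 at *Tfap2c*, and 4.77, 1.31 and 4.42 at *Tfap2a*. Each gene thus lay on both sides of the median of all genes. For the *Dnmt3b* KO the medians were 1.19, 1.17 and 1.25, beside 0.596, 1.12 and 1.16 at *Ets2*, 1.14, 1.09 and 1.60 at *Tfap2c*, and 3.81, 1.44 and 6.5 at *Tfap2a*.

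**Figure D5:**
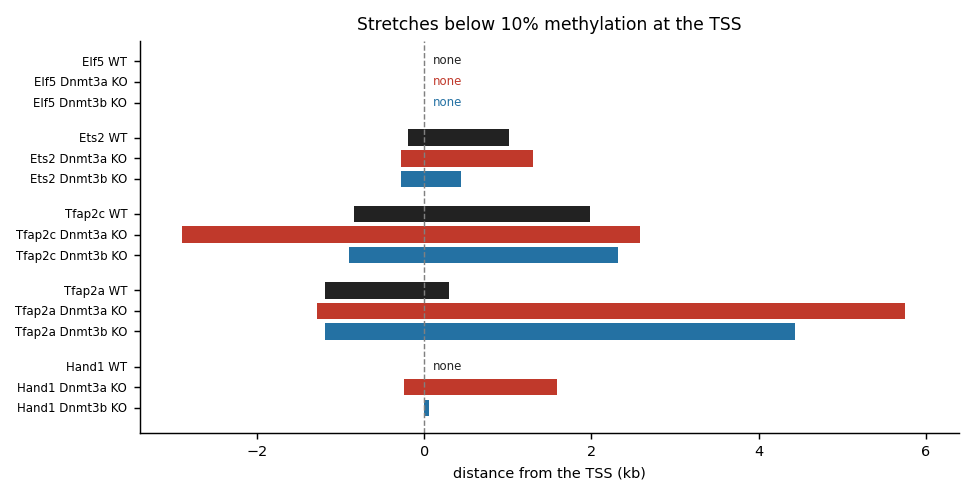
Stretches with a running mean under 10% methylation at the TSS of each gene, as bars along the distance from the TSS in kb (x axis), for WT, *Dnmt3a* KO and *Dnmt3b* KO ESCs (y axis). *Elf5* has none, the bars of *Tfap2c* and *Tfap2a* in the *Dnmt3a* KO are 5483 bp and 7030 bp long at this setting (a mean over 5 CpGs) and exceed those in the *Dnmt3b* KO, an order that turned at both genes with a mean over 3 CpGs, and *Hand1* has none in WT at this setting.

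A list of 37 other trophoblast genes was examined beside the 5, of which 23 lie in the part of the genome listed for all genotypes. Their TSS windows were lower in the *Dnmt3a* KO than in WT ESCs for 22 of 23, beside 98.6% of all genes, and lower by more than 20 points for 11 of 23, beside 40.9% of all genes. In the *Dnmt3b* KO 22 of 23 were lower, beside 94.7% of all genes, and 0 were lower by more than 20 points, beside 2.51% of all genes. The median difference was -16.2 points in the *Dnmt3a* KO and -3.10 points in the *Dnmt3b* KO. Of the 1664 CpGs in these windows, 8.23% were called lower in the *Dnmt3a* KO and 0.841% in the *Dnmt3b* KO, beside the 9.06% and 1.49% of CpGs in the TSS windows of all genes.

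By role, the 9 transcription factors of the list stood at a median of 7.48% in WT, 1.96% in the *Dnmt3a* KO and 4.69% in the *Dnmt3b* KO, and the 3 signals and receptors 4.02%, 1.13% and 2.26%. The 11 surface, structural and secreted genes had a median of 87.5%, 45.1% and 75.6%, with WT levels from 1.02% to 93.8%. *Esrrb*, a nuclear receptor gene used in both ESCs and trophoblast stem cells, was the highest of the 23 genes read in WT at 94.1%, with 33.3% in the *Dnmt3a* KO and 85.4% in the *Dnmt3b* KO. Its window is that of the coding transcript with the longest span, and no other start of the gene was examined. *Cited2*, a transcriptional coregulator, was the lowest of the 23, at 0 in WT, 0.278% in the *Dnmt3a* KO and 0.228% in the *Dnmt3b* KO.

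The other genes of the list at 50% or more in WT all belong to its surface, structural and secreted genes. The placental prolactin family genes *Prl3d1*, *Prl3b1* and *Prl2c2* stood at 92.3%, 90.4% and 87.5% in WT, and their differences from WT in the *Dnmt3a* KO were -47.2, -38.9 and -30.4 points. Those in the *Dnmt3b* KO were -15.1, -3.05 and -6.99 points. The differences of *Ctsq*, a placental cathepsin, were -43.8 points in the *Dnmt3a* KO and -15.1 points in the *Dnmt3b* KO. Those of *Synb*, a syncytin, were -41.5 and -6.76 points. *Tpbpa*, a marker of spongiotrophoblast, had -33.2 and -13.6 points, and the keratin gene *Krt7* had -26.5 and -10.8 points.

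For the other 14 genes of the list WT was not analysed here, and only the KOs were compared. *Dnmt3a* KO ESCs were lower than *Dnmt3b* KO ESCs at 13 of 14, with medians of 9.37% and 30.7%. Over the 14084 genes measured in all genotypes 95.2% were lower in this comparison, with medians of 4.97% and 12.4%. The 14 genes lie outside the part of the genome that holds those 14084, so this background is not matched to them.

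Depth and labels were checked once for the whole series. At *Dnmt3a* 12 CpGs in a row had no reads in the *Dnmt3a* KO and a mean of 31.4 reads in WT. At *Dnmt3b* 30 CpGs in a row had no reads in the *Dnmt3b* KO and a mean of 31.5 reads in WT. Over the CpGs of the 5 genes the mean depth was 20.9 reads in WT, 19.7 in the *Dnmt3a* KO and 20.9 in the *Dnmt3b* KO, and mean methylation over the 13328402 CpGs read in all genotypes was 82.4%, 50.3% and 75.5%.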

How the data were processed

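WGBS was analysed in 9 libraries, 3 per genotype. According to the methods, the authors aligned paired-end reads to mm9 with BSMAP (also named in the submitters' processing notes), removed biases and clonal reads with BSeQC and counted reads over each CpG with MOABS. Per the labels, the 3 libraries of a genotype share 1 merged table. The deposited counts of all and of methylated reads per CpG are not normalized. The deposited methylation ratio is the fraction of methylated reads, rounded by the authors, and was recomputed from the counts. Rows for WT stop within chromosome 4, the incomplete last row was left out, and 13 whole chromosomes and part of chromosome 4 were compared.

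Genes came from GENCODE vM1 on NCBIM37, which is mm9. All 2673 CpGs used are CG in that reference. The TSS is that of the coding transcript with the longest span. RefSeq gave synonyms, and its promoters of 3 genes (GRCm38.p6) were matched exactly to mm9. The nearest RefSeq start lay 410 bp after the main TSS at *Elf5*, 332 bp after it at *Ets2* and 28 bp after it at *Tfap2a*, and was not used for windows. Another RefSeq start of *Elf5* lay 12380 bp after the main TSS, close to the internal TSS at 12374 bp. The sequence before the *Tfap2c* TSS is not reported here. CpGs needed 3 reads in every genotype, and regions compared over all genes 5 CpGs. Calls used Beta posteriors with a uniform prior and a 95% credible interval beyond 0.2, with counts above 200 reads scaled down, and compare pooled reads, not replicates. Wilson and Newcombe 95% intervals were used for read shares. Python 3.11.15, NumPy 2.4.6, SciPy 1.17.1, numba 0.67.0, PyArrow 21.0.0 and matplotlib 3.10.9 were used.

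The members and lists were chosen with earlier results of these data known. Named from the list of 37 genes are those at 50% or more in WT, those that fell by more than 20 points in the *Dnmt3b* KO (0 genes) and the lowest and highest of those read in WT. The 5 genes most like *Elf5* have the smallest Euclidean distance in the 3 levels. The alternatives covered the read minimum, the credible level, Fisher's exact test, thinning, weighting by reads, the window, each strand and the limits of the stretches.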

Additional observations from a re-analysis of the deposited data

How the results depend on the processing

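The number of CpGs called lower depended on the rule. In the *Dnmt3a* KO it was 952 with Fisher's exact test at an adjusted p under 0.05 and 324 with a 99% credible interval, against 511. In the *Dnmt3b* KO it was 79 and 21, against 46, and for *Dnmt3a* KO below *Dnmt3b* KO ESCs 674 and 222, against 371. In these 3 comparisons the counts were 35.6%, 2.96% and 25.2% of the 2673 CpGs with Fisher's test. With the 99% interval they were 12.1%, 0.786% and 8.31%. The shares over all CpGs read at least 3 times in the 2 genotypes compared were 49.6%, 3.91% and 33.8% with Fisher's test. With the 99% interval these shares were 16.8%, 1.01% and 10.1%. A minimum of 10 reads and thinning to equal depth kept all 3 counts within 1.5 times. The median TSS window difference in the *Dnmt3a* KO was -10.3 points with a minimum of 10 reads, -13.3 as a share of reads, -4.30 within 500 bp and -12.0 on the plus strand, against -7.41. In the *Dnmt3b* KO it was -3.51 on the plus strand, -3.06 as a share of reads and -0.737 within 500 bp, against -1.25. The *Elf5* window difference was -48.3 points on the minus strand in the *Dnmt3a* KO and -12.3 on the plus strand in the *Dnmt3b* KO, against -39.8 and -8.41. Of 96 values of TSS window differences 94 kept their sign. The exceptions, both in the *Dnmt3b* KO, were *Ets2* on the minus strand (0.936 points) and *Hand1* within 500 bp (0.319 points). Of 60 values for bodies and flanks 59 kept their sign, and 9 of 30 stretch lengths moved by more than 1.5 times. The order of the KO lengths at *Tfap2c* and *Tfap2a* and the direction of *Ets2* in the *Dnmt3b* KO turned with the setting. The cause of these shifts was not tested. No paired analysis was possible because the 3 libraries of a genotype were merged into 1 table, and for the same reason no library could be left out. Between 10.2% and 14% of the CpGs had under 10 reads in a genotype, and a single CpG with few reads cannot show a small difference.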
